A study of Mus musculus with 10 samples.

Results

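The 9 C-type lectin receptor genes described here are receptors of myeloid cells: Clec4d, Clec4e, Clec4n, Clec4a1, Clec4a2, Clec4a3, Clec7a, Clec5a and Clec12a. They were taken by gene name from 29893 genes to which the transcripts of the deposited tables could be assigned. Libraries were made from neutrophils and from CCR2+ monocytes that had been sorted by flow cytometry out of the lungs of NOD/scid mice, an immunodeficient strain that lacks mature T and B cells. The mice bore 1 of 2 breast tumours and were sampled at end point: HCl-001 (TN1), described by the submitters as highly metastatic, or HCl-002 (TN2), described as low metastatic. Each cell type has 2 libraries from TN1 (tag_191 and tag_482) and 3 from TN2 (tag_367, tag_706 and tag_1341), so 10 libraries in 4 groups. None of these libraries came from a mouse without a tumour. The labels do not say that the tags are separate mice, so p-values measure the spread between these libraries, which may be technical. The study set out to compare the transcriptomes of these cells under the 2 tumours.

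C-type lectin receptors are surface proteins that bind sugars, lipids and other ligands of microbes and of damaged cells. Activating members signal through an immunoreceptor tyrosine-based activation motif (ITAM), either on an adaptor chain such as Fcer1g or Tyrobp or in their own tail, which recruits the kinase Syk and, downstream, the adaptor Card9. Inhibitory members carry an inhibitory motif (ITIM) that recruits phosphatases. Among the activating genes, Clec4e encodes Mincle, a receptor for mycobacterial cord factor; Clec4d encodes MCL, its partner; Clec4n encodes Dectin-2, which binds mannans; Clec7a encodes Dectin-1, which binds beta-glucans; and Clec5a encodes MDL-1, which pairs with Tyrobp. Clec4a2 (DCIR) and Clec12a (MICL) are inhibitory, and Clec4a1 and Clec4a3 encode relatives of DCIR without the inhibitory motif.

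All 9 genes lie on chromosome 6 of the GRCm38 build. In the GENCODE annotation, 6 of them form 1 block: Clec4a1 (122921848 to 122934619, plus strand), Clec4a3 (122952515 to 122969875, plus), Clec4a2 (123106428 to 123143999, plus), Clec4n (123229843 to 123247021, plus), Clec4d (123262111 to 123275265, plus) and Clec4e (123281789 to 123289870, minus). Clec4d and Clec4e end towards each other with 6523 bases between them. Clec12a (129342691 to 129365303, plus) and Clec7a (129461591 to 129472779, minus) lie further along, and Clec5a (40574894 to 40585821, minus) lies apart from the others. Clec7a is annotated as a polymorphic pseudogene at the gene level, while its 1 transcript in the tables is annotated as protein-coding.

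Promoter sequences of the RefSeq table (GRCm38.p6), which run from 250 bases before to 50 bases after a start, were matched for 8 of the 9 genes, with 10 entries in all. Those of 4 of the 7 genes that differed in level between the cell types are shown: Clec4d and Clec4e were the neutrophil-high neighbours, and Clec4a1 and Clec12a were higher in monocytes. Those of Clec5a, Clec7a and Clec4a3, which also differed, and of Clec4a2 are not shown. The Clec4a2 entry and 1 of the Clec4a3 entries held no match of the letters marked below. The windows are chr6:123261857-123262156 (plus strand) for Clec4d, chr6:123289822-123290121 (minus) for Clec4e, chr6:122921598-122921897 (plus) for Clec4a1 and chr6:129349994-129350293 (plus) for Clec12a. Capitals mark the letters GAGGAA, a core of sites of the myeloid factor PU.1, and TTGCNNAA, a core of C/EBP sites, both searched on both strands, so that either may also appear as its reverse complement.
Clec4d: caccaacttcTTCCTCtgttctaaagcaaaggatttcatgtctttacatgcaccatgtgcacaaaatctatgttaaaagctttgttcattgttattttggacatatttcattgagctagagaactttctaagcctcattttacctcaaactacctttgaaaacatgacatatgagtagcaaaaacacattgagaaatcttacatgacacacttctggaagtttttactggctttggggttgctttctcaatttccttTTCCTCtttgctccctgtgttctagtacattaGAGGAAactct
Clec4e: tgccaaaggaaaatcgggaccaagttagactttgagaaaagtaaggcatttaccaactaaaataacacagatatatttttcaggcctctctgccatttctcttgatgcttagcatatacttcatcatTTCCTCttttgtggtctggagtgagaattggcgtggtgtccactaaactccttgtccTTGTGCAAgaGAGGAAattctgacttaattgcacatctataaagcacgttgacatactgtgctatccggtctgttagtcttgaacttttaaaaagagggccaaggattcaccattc
Clec4a1: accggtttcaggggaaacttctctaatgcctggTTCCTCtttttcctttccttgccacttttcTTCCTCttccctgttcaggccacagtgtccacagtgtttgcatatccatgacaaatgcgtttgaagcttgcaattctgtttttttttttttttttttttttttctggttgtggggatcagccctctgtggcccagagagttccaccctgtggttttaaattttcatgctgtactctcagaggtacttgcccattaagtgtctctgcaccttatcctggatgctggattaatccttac
Clec12a: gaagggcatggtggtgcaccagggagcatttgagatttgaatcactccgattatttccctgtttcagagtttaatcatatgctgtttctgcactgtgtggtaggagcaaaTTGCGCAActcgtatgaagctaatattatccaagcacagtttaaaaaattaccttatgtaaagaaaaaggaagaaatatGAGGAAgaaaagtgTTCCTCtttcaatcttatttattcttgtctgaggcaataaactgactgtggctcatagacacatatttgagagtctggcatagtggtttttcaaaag
The letters GAGGAA were found in 8 of the 10 entries (7 of the 8 genes), against 28.28% of the 32851 promoters of the table. In Clec4d the matches began 240 bases before the start and 7 and 39 bases after it. The C/EBP letters were found in Clec4e, 66 bases before the start, and in Clec12a, 140 bases before it, against 10.8% of all promoters. The distances are counted from the RefSeq start. The whole Clec12a window (from base 129349994) lies downstream of the GENCODE start of the main Clec12a transcript (base 129349964). An NF-kB pattern, searched in the same way, was in no member's window and in 1.629% of all promoters. No matches of different or equal motifs overlapped in these windows. The matches are a description of letters and were present in genes high in either cell type.

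The libraries held between 7239218 and 11311370 estimated counts. The receptor genes took 0.923% to 1.16% of the assigned counts in neutrophils and 0.302% to 0.581% in monocytes. Marker genes went with the sort labels: the summed level of 10 neutrophil markers was 52224 to 71846 CPM (counts scaled to a common library size, with TMM factors) in neutrophils and 218 to 1520 CPM in monocytes, while that of 10 monocyte markers was 800 to 1732 CPM in neutrophils and 2664 to 6660 CPM in monocytes. Monocytes TN2 tag_706 stood apart, with the lowest monocyte marker sum, the highest neutrophil marker sum among monocytes and the highest endothelial sum (1235 CPM over 5 genes, against 20.0 to 169.7 CPM in the other monocyte libraries). Neutrophils TN2 tag_1341 had the highest monocyte marker sum among neutrophils. Fewest genes reached 5 counts in the libraries of TN1 tag_482 (8851 in neutrophils and 9732 in monocytes), and the monocyte one had a mitochondrial share of TPM of 19.9%. The T cell gene Cd3e was at 0 in every library, but other genes of its list were not. The 10 natural killer and lymphocyte markers summed to 13.2 to 245 CPM in monocytes and 0.143 to 32.3 CPM in neutrophils. In Monocytes TN2 tag_706, Cd3g was at 3.84 CPM and Gzma at 136 CPM.

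**Figure D1:**
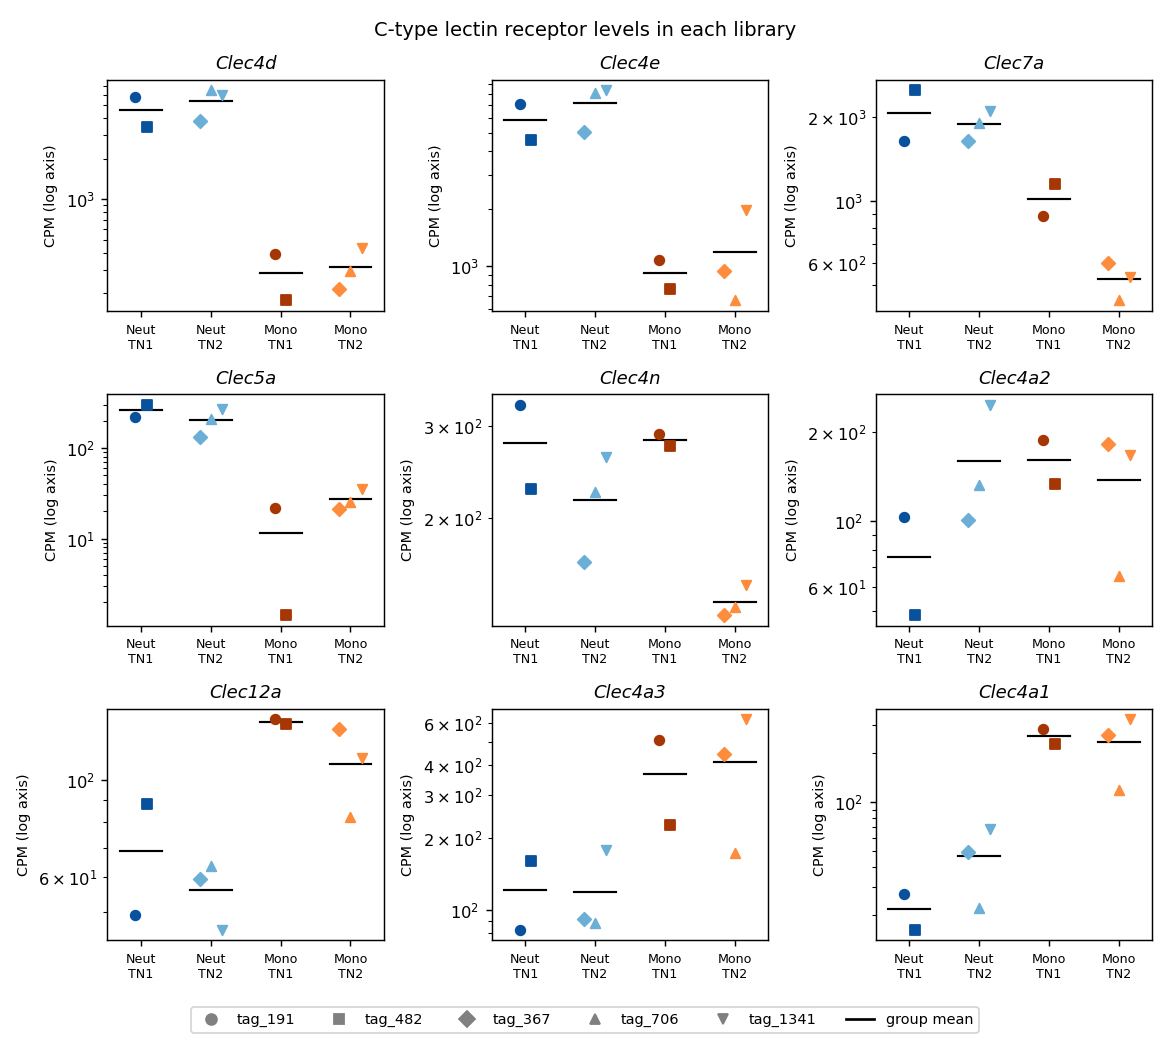
Level of each of the 9 receptor genes in CPM (log axis, a separate range per panel) for the 10 libraries in 4 groups; each symbol is 1 library, its shape is the tag, and the bar is the group mean. Clec4d, Clec4e, Clec7a and Clec5a are higher in all 5 neutrophil libraries than in any monocyte library, and Clec4a1 is higher in all 5 monocyte libraries.

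The first comparison set CCR2+ monocytes against neutrophils over both tumours. The 4 activating receptor genes Clec4d, Clec4e, Clec7a and Clec5a were lower in monocytes, by 16.7-, 6.16-, 2.71- and 12.9-fold. These sizes moved with the fit: on log2(TPM + 1) the log2 differences were -3.35 for Clec4d, -2.05 for Clec4e and -0.67 for Clec7a, and without Monocytes TN1 tag_191 that of Clec5a was -5.22. The DCIR relatives Clec4a1 and Clec4a3 and the inhibitory receptor gene Clec12a were higher in monocytes, by 7.71-, 3.23- and 1.95-fold (3.66 and 2.39 on log2(TPM + 1) for the first 2). The inhibitory receptor gene Clec4a2 and the activating gene Clec4n did not pass the test. In all, 7 of the 9 genes passed an adjusted p of 0.05 (edgeR's quasi-likelihood test, Benjamini-Hochberg over 13384 genes), 3 of them higher and 4 lower in monocytes, against a background of 27.9% of all genes tested (15.5% higher and 12.4% lower). In bulk samples, fewer cells of a type and less RNA per cell cannot be told apart.

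Among the activating receptors, levels of Clec4d, the MCL gene, in neutrophils were 5807 and 3442 CPM in TN1 and 3829, 6481 and 5933 CPM in TN2. In monocytes they were 390 and 177 CPM in TN1 and 216, 291 and 438 CPM in TN2. The lowest neutrophil library thus stood far above the highest monocyte library. The log2 difference was -4.07 ± 0.37 (SE), with an adjusted p of 0.000104 by edgeR.

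Clec4e, the Mincle gene, was lower in monocytes than in neutrophils. Neutrophil levels were 7040 and 4590 CPM in TN1 and 5027, 8078 and 8354 CPM in TN2. Monocyte levels were 1074 and 761 CPM in TN1 and 946, 662 and 1972 CPM in TN2. The groups did not overlap, and among monocytes tag_1341 was the highest. That library also had the highest summed level of 10 macrophage markers (9703 CPM, against 317 to 5184 CPM in the other monocyte libraries). Chil3 alone made 9224 CPM of it. Of the other markers, Apoe, C1qa, C1qb, Marco, Ear1, Fabp1 and Car4 were higher in tag_706, where Clec4e was at 662 CPM. Mertk and C1qc were higher in tag_1341. Apoe, for one, was at 898 CPM in tag_706 and 340 CPM in tag_1341. The part of these markers in the Clec4e level was not tested. The log2 difference was -2.62 ± 0.36 (adjusted p = 0.000654, edgeR).

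Clec7a, the Dectin-1 gene, was at 1648 and 2500 CPM in TN1 neutrophils and at 1645, 1912 and 2107 CPM in TN2 neutrophils. It was at 881 and 1152 CPM in TN1 monocytes and at 599, 440 and 532 CPM in TN2 monocytes. All neutrophil libraries exceeded all monocyte libraries, by a narrower margin than for Clec4d. The log2 difference was -1.44 ± 0.21 (adjusted p = 0.00102, edgeR).

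Clec5a, the MDL-1 gene, was at 221 and 298 CPM in TN1 neutrophils and at 131, 207 and 269 CPM in TN2 neutrophils. It was at 21.8 and 1.44 CPM in TN1 monocytes and at 21.1, 25.3 and 35.3 CPM in TN2 monocytes. The groups did not overlap, and the low value of TN1 tag_482 set the spread among monocytes. The log2 difference was -3.68 ± 0.63 (adjusted p = 0.00211, edgeR).

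Clec4n, the Dectin-2 gene, was the activating gene whose cell types overlapped. It was at 329 and 227 CPM in TN1 neutrophils and at 165, 224 and 261 CPM in TN2 neutrophils. It was at 289 and 275 CPM in TN1 monocytes and at 130, 135 and 149 CPM in TN2 monocytes. The TN1 monocyte libraries lay within the neutrophil range and the TN2 monocyte libraries below it. The log2 difference of -0.32 ± 0.21 did not pass (adjusted p = 0.277, edgeR), and its sign turned on the TPM scale (0.43, adjusted p = 0.0852, limma on log2(TPM + 1)).

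The DCIR relatives were higher in monocytes. Clec4a1 was at 27.3 and 16.3 CPM in TN1 neutrophils and at 49.0, 22.3 and 68.4 CPM in TN2 neutrophils. It was at 284 and 229 CPM in TN1 monocytes and at 261, 119 and 325 CPM in TN2 monocytes. Every monocyte library lay above every neutrophil library, and the log2 difference was 2.95 ± 0.41 (adjusted p = 0.000688, edgeR). Clec4a3 was at 82.9 and 160 CPM in TN1 neutrophils and at 91.6, 88.4 and 177 CPM in TN2 neutrophils. It was at 508 and 225 CPM in TN1 monocytes and at 445, 172 and 619 CPM in TN2 monocytes. The ranges of Clec4a3 overlapped on CPM because Monocytes TN2 tag_706 fell just below Neutrophils TN2 tag_1341, the same 2 libraries whose marker sums stood apart. On TPM the ranges of Clec4a3 did not overlap. Its log2 difference was 1.69 ± 0.43 (adjusted p = 0.0154, edgeR), and it lost the call without either tag_191 library (adjusted p = 0.0615 without that of neutrophils and 0.0753 without that of monocytes). Without those 2 libraries that stood apart, the edgeR differences were 3.27 ± 0.34 for Clec4a1 and 2.04 ± 0.34 for Clec4a3, and again 7 of the 9 genes passed.

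The inhibitory receptor genes had small differences on counts, which were larger on the TPM scale. Clec4a2, the DCIR gene, was at 103 and 48.3 CPM in TN1 neutrophils and at 101, 132 and 246 CPM in TN2 neutrophils. It was at 187 and 133 CPM in TN1 monocytes and at 181, 65.2 and 166 CPM in TN2 monocytes. Its ranges overlapped broadly, and the log2 difference of 0.43 ± 0.38 did not pass (adjusted p = 0.424, edgeR), although on log2(TPM + 1) it was 1.22 and passed (adjusted p = 0.0127, limma). Clec12a, the MICL gene, was at 49.3 and 88.2 CPM in TN1 neutrophils and at 59.4, 63.6 and 45.6 CPM in TN2 neutrophils. It was at 137 and 134 CPM in TN1 monocytes and at 130, 82.4 and 112 CPM in TN2 monocytes. Only Monocytes TN2 tag_706 lay below the highest neutrophil library, and the log2 difference was 0.96 ± 0.25 (adjusted p = 0.0193, edgeR). On log2(TPM + 1) the Clec12a difference was 1.56 (adjusted p = 0.000648, limma), and its ranges did not overlap on TPM. The Clec12a call was lost in 5 of the 10 fits that left out 1 library, with adjusted p-values up to 0.0926.

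Set beside the whole gene list, the groups of members did not overlap for 5 genes on CPM, 1 higher in monocytes and 4 lower, where 28.5% of all genes did not. The median log2 difference was -0.32 over the 9 members and 0.46 over all genes tested. The scale moved that last value, to 0.62 on log2(TPM + 1) and to 1.003 on log2(TPM + 0.1), and the split of all called genes moved with it, from 2070 higher and 1663 lower to 4532 higher and 1198 lower on log2(TPM + 1). Relative to the median of all genes, Clec4n was at -0.78 on counts and -0.19 on log2(TPM + 1), Clec4a2 at -0.03 and 0.60, and Clec12a at 0.50 and 0.94. The directions of the 7 called genes were the same on the count scale and on both TPM scales.

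**Figure D2:**
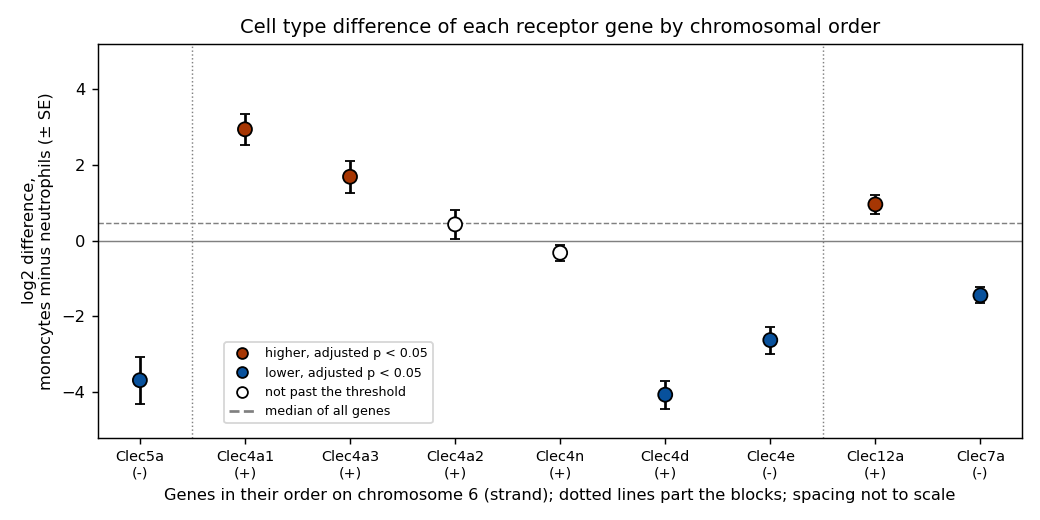
The log2 difference between monocytes and neutrophils (positive is higher in monocytes) with its standard error for each gene in chromosomal order, with the strand in brackets. Within the block of 6 genes the values go from 2.95 for Clec4a1 down to -4.07 for Clec4d, with -2.62 for Clec4e at the end.

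Along the 6 members of the block on chromosome 6, the difference went with position. The 2 genes at one end, Clec4a1 and Clec4a3, were higher in monocytes. Clec4a2 and Clec4n in the middle did not pass the test. Clec4d and Clec4e at the other end were lower in monocytes. In the second block, the neighbours Clec12a and Clec7a differed in opposite directions, with 96287 bases between them. With 6 genes in 1 block, this order is a description of the members only. The positions of other Clec4 genes tested were not looked up, among them Clec4b1 (7.15 ± 1.09), Clec4b2 (-3.83 ± 1.66) and Clec4a4 (-0.41 ± 1.51). Whether the order holds with such genes included was not tested.

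Levels of different genes can be compared per transcript length, in TPM (transcripts scaled by length and library). In neutrophils Clec4d (3761 ± 824 TPM, SD, n = 5) and Clec4e (2893 ± 578 TPM) came first, with overlapping ranges, and together held most of the receptor transcripts, with mean shares of 46.3% and 35.7%. Clec7a followed at 795 ± 139 TPM and Clec4n at 210 ± 50.2 TPM. Clec7a did not overlap either gene next to it in the order of means, while the range of Clec4n overlapped that of Clec4a2. Clec5a (139 ± 23.6 TPM), Clec4a2 (111 ± 53.1 TPM) and Clec4a3 (95.9 ± 29.8 TPM) overlapped one another. Clec12a (29.4 ± 9.50 TPM) and Clec4a1 (22.6 ± 12.4 TPM) were lowest and overlapped.

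In monocytes the receptor transcripts were spread more evenly. Clec4e (769 ± 392 TPM), Clec4a3 (575 ± 294 TPM), Clec7a (490 ± 120 TPM), Clec4d (403 ± 167 TPM), Clec4n (282 ± 79.2 TPM), Clec4a1 (263 ± 87.5 TPM) and Clec4a2 (233 ± 81.4 TPM) each overlapped the next in that order. Clec12a (87.6 ± 10.9 TPM) and Clec5a (25.9 ± 17.4 TPM) lay below them without overlap. Over all transcripts, the highest mean share was that of Clec7a in TN1 monocytes (22.5%, against 19.4% for Clec4e) and that of Clec4e in TN2 monocytes (26.6%). Of the Clec4e level in monocytes, the main coding transcript made 391 ± 197 TPM. Clec4a1 lay below Clec4n in every neutrophil library, and their ranges overlapped in monocytes.

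**Figure D3:**
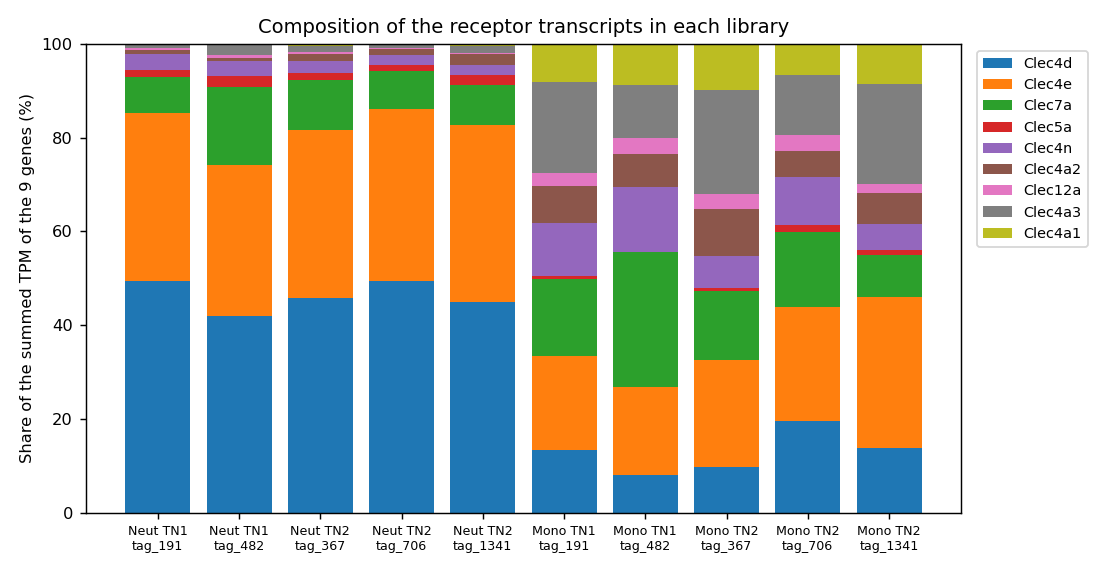
Share of the summed TPM of the 9 receptor genes (percent, vertical axis) held by each gene in each of the 10 libraries. Clec4d and Clec4e fill most of every neutrophil bar, while Clec4a3, Clec4a1, Clec4n and Clec4a2 take larger shares of the monocyte bars.

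Ratios within a library do not depend on its scaling. The TPM ratio of Clec4d to Clec4e, the genes of the partner receptors MCL and Mincle, was 1.19 to 1.38 in the neutrophil libraries and 0.42 to 0.79 in the monocyte libraries, with all transcripts summed. With the main coding transcript of Clec4e alone it was 2.40 to 2.96 and 0.82 to 1.52, so the order of the pair in monocytes depended on the transcripts counted. The ratio of Clec4d to Clec4n was 13.6 to 24.4 in neutrophils and 0.58 to 2.45 in monocytes. The ratio of the inhibitory Clec4a2 to its relative Clec4a1 was 3.09 to 8.57 in neutrophils and 0.76 to 1.02 in monocytes. None of these 3 ratios overlapped between the cell types. Clec4d, Clec4e and Clec4a1 did not overlap as single genes on TPM either. How often ratios of other gene pairs part in this way was not counted. The ratio of Clec4a3 to Clec4a1 was 2.51 to 12.7 in neutrophils and 1.29 to 2.54 in monocytes, which overlapped.

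Transcripts of some members differed in their shares, as far as kallisto divides reads that fit several transcripts. Not every transcript is described here, and the share of all transcripts that part between the cell types was not counted. Within Clec4e, a second coding transcript (ENSMUST00000177367) held 6.87% to 11.9% of the gene's TPM in neutrophils and 0.0% to 4.29% in monocytes. The main coding transcript of Clec4e (ENSMUST00000032239) held 43.3% to 56.2% and 47.2% to 52.5%, and a transcript with a retained intron (ENSMUST00000175995) held 20.8% to 30.99% and 30.9% to 36.1%. The main transcript's ranges thus overlapped, and those of the second coding transcript did not.

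Within Clec12a, the coding transcript that starts furthest upstream (ENSMUST00000151671, from base 129342691) held 13.1% to 26.2% of the gene's TPM in neutrophils. In monocytes it was listed at 0 in 3 libraries and held 4.43% in TN1 tag_191 and 3.54% in TN2 tag_706. The main Clec12a transcript (ENSMUST00000065289, from base 129349964) held 73.5% to 81.6% in neutrophils and 93.0% to 99.8% in monocytes. Within Clec4a2, 1 coding transcript (ENSMUST00000032248) held 8.57% to 25.6% in neutrophils and 30.0% to 40.8% in monocytes. The coding transcripts ENSMUST00000041779 and ENSMUST00000161365 of Clec4a2 had higher shares in all neutrophil libraries. Within Clec5a, a transcript not annotated as coding (ENSMUST00000031975) held 24.5% to 43.2% in neutrophils and 45.0% to 100% in monocytes. The 100% was that of TN1 tag_482, where Clec5a was at 1.44 CPM. Clec4a2 shares 10.5% of its distinct runs of 31 bases with transcripts of other genes, chiefly Clec4a4 and Clec4b1, the largest share of the 9; for Clec4a3 the share was 2.24% and for the others it was under 1%.

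**Figure D4:**
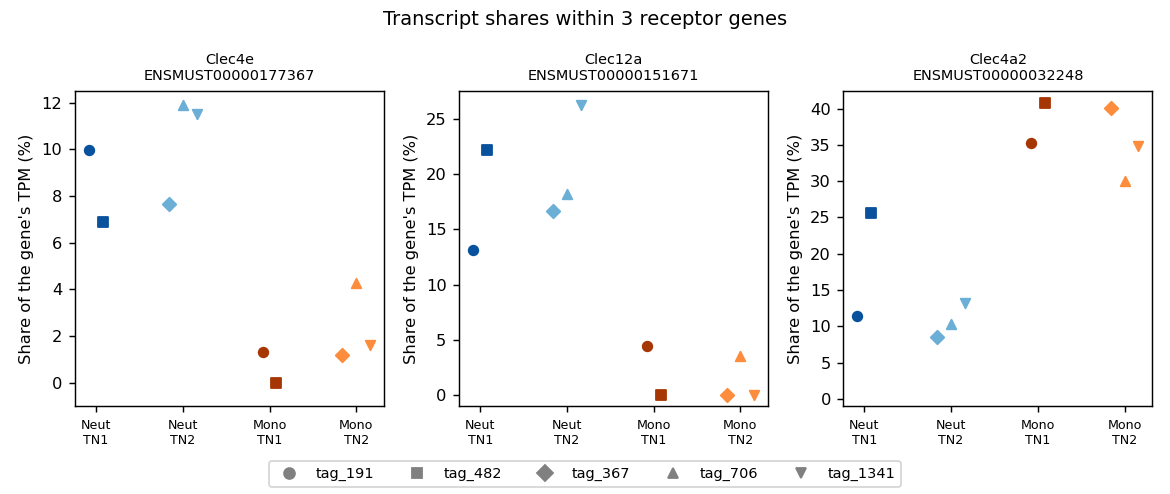
Share of the gene's TPM (percent) held by 1 transcript of Clec4e, of Clec12a and of Clec4a2, for each library in 4 groups (symbol shape is the tag). The Clec4e and Clec12a transcripts have higher shares in all neutrophil libraries, and the Clec4a2 transcript has higher shares in all monocyte libraries.

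The second comparison set TN2 against TN1, the low against the highly metastatic tumour, within each cell type. No receptor gene passed an adjusted p of 0.05 in neutrophils, nor did any of all genes tested (0.0%) by edgeR. At an unadjusted p under 0.05, 0 of the 9 members and 4.67% of all genes stood in neutrophils. DESeq2 called 87 genes there, none of them a member. The most positive estimates in neutrophils were those of Clec4a1 (1.09 ± 0.55, log2, adjusted p = 0.943) and Clec4a2 (1.08 ± 0.56, adjusted p = 0.943, edgeR). Both had their highest neutrophil value in TN2 tag_1341, the neutrophil library with the highest monocyte marker sum, and without it and Monocytes TN2 tag_706 they were 0.64 ± 0.45 and 0.54 ± 0.41. The other 7 estimates ran from -0.36 (Clec4n) to 0.30 (Clec4e), with standard errors of 0.29 to 0.77. On CPM the TN1 and TN2 ranges of all 9 members overlapped in neutrophils, where 17.7% of all genes did not overlap. On TPM, Clec4n (lower in TN2) and Clec4a2 (higher in TN2) did not overlap. The share of all genes without overlap on TPM was not counted, in neutrophils or in monocytes. Whether members part on TPM more often than other genes is therefore not known.

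In monocytes no member passed either, and again 0.0% of all genes did by edgeR. At an unadjusted p under 0.05 there were 2 of the 9 members, against 2.83% of all genes, and DESeq2 called 22 genes, none of them a member. The 2 members were Clec4n, the Dectin-2 gene, and Clec7a, the Dectin-1 gene, both lower in TN2. Clec4n was at 289 and 275 CPM in TN1 and at 130, 135 and 149 CPM in TN2, a log2 difference of -1.03 ± 0.29 (unadjusted p = 0.00516, adjusted p = 1, edgeR). Clec7a was at 881 and 1152 CPM in TN1 and at 599, 440 and 532 CPM in TN2, a log2 difference of -0.96 ± 0.29 (unadjusted p = 0.00828, adjusted p = 1, edgeR). For both genes every TN2 monocyte library lay below every TN1 monocyte library, on CPM and on TPM. On log2(TPM + 1) the differences were -0.63 for Clec4n and -0.61 for Clec7a. Marker sums differed between the same libraries. The dendritic cell list was at 291 and 1179 CPM in TN1 and at 251, 258 and 155 CPM in TN2. The macrophage list was at 758 and 317 CPM in TN1 and at 1937, 5184 and 9703 CPM in TN2. Of the latter, Chil3 alone held 519 and 73.8 CPM in TN1 and 1672, 3931 and 9224 CPM in TN2. Chil3 was also found in neutrophils, at up to 2001 CPM. The part of these sums in the Clec4n and Clec7a differences was not tested. In the authors' deposited table the log2 folds were -0.63 (p = 0.0432) for Clec4n and -0.61 (p = 0.0303) for Clec7a, each with an adjusted p of 1.

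Clec12a also did not overlap between the tumours in monocytes on CPM, with a difference of -0.32 ± 0.35, but it did on TPM. That made 3 members lower and 0 higher without overlap on CPM, where 7.73% of all genes were lower. That share covers the lower direction only, unlike the 17.7% for either direction in neutrophils. Clec5a was higher in TN2 monocytes by 1.22 ± 0.82 without passing (adjusted p = 1, edgeR), and by 2.34 on log2(TPM + 1). Its ranges overlapped on CPM but not on TPM (22.0 and 1.09 TPM in TN1, 23.7, 34.6 and 48.2 TPM in TN2). These estimates rested on TN1 tag_482, at 1.44 CPM. Without Monocytes TN1 tag_191, which left that library alone in its group and assumed to vary like the others, the Clec5a difference was 4.18 and passed (adjusted p = 0.0368, edgeR). Without TN1 tag_482 in both cell types, the differences were -1.11 ± 0.38 for Clec4n and -0.79 ± 0.40 for Clec7a. The other 5 monocyte estimates ran from -0.22 (Clec4a2) to 0.38 (Clec4e), all within 1 standard error of 0. The median over all genes was 0.22 in either cell type on counts and moved to 0.07 in neutrophils and 0.39 in monocytes on log2(TPM + 1). Relative to it, the Clec4n difference in monocytes was -1.25 on counts and -1.02 on log2(TPM + 1), and that of Clec7a was -1.18 and -0.996.

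**Figure D5:**
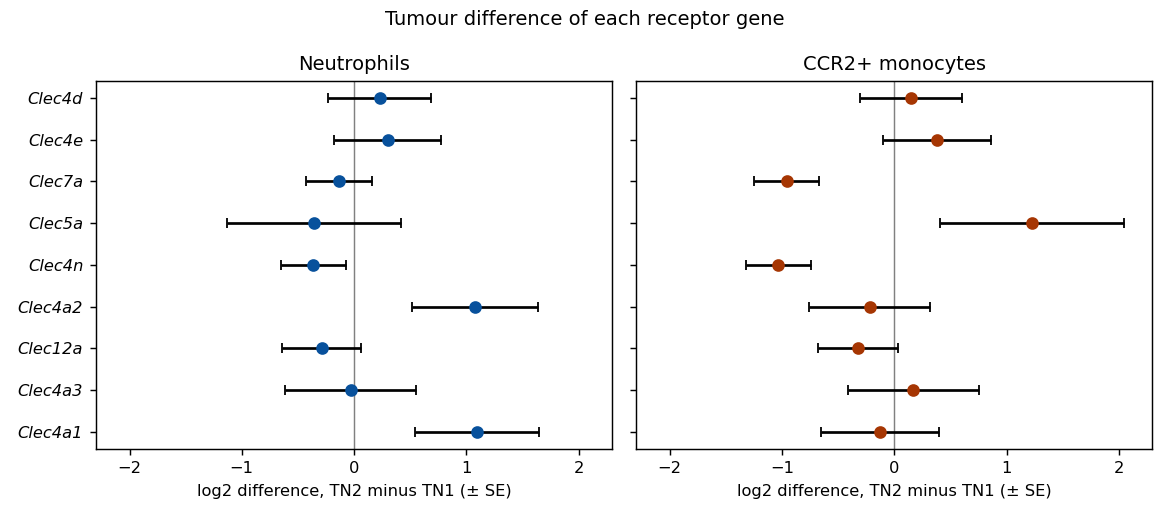
The log2 difference between TN2 and TN1 with its standard error (edgeR) for each receptor gene in neutrophils (left) and CCR2+ monocytes (right). Clec4n at -1.03 and Clec7a at -0.96 in monocytes lie furthest below 0, and no gene passed the adjusted threshold.

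Whether the tumour difference itself differed between the cell types was tested with an interaction term. No member passed, and 0.0% of all genes did (3.53% at an unadjusted p under 0.05, which included 0 members). DESeq2 called 21 genes, none of them a member. The estimates ran from -1.30 ± 0.77 for Clec4a2 to 1.58 ± 1.12 for Clec5a. For Clec7a the difference of differences was -0.82 ± 0.42 (unadjusted p = 0.0777, adjusted p = 0.9999, edgeR) and for Clec4n it was -0.67 ± 0.41. A lower level in TN2 that was particular to monocytes was therefore not shown for Clec4n or Clec7a.

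Gene lists around the receptors were read out for monocytes against neutrophils. Of 17 genes of the ITAM and Syk-Card9 pathway, all tested, 12 were lower in monocytes, 0 were higher and 5 did not pass. Of all genes, 12.4% were lower and 15.5% higher. The median log2 difference of the list was -1.37, against 0.46 for all genes. Fcer1g, the adaptor of Clec4e, Clec4d and Clec4n, measured 2354 ± 262 CPM (SD, n = 5) across neutrophil libraries against 1212 ± 285 CPM across those of monocytes, a log2 difference of -0.94 ± 0.23. Tyrobp, the adaptor of Clec5a, differed by -1.62 ± 0.23, Syk by -1.58 ± 0.21 and Card9 by -1.37 ± 0.35. Hcst, another adaptor chain (-2.58 ± 0.33), and Fgr, a Src family kinase (-2.08 ± 0.28), were with Syk the 3 genes of the list with the smallest p. The 5 that did not pass were Malt1, Plcg2, Prkcd, Vav3 and Src, named after their values were seen.

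Of 9 phosphatases and regulators that act with inhibitory receptors, 1 rose in monocytes and 2 fell, a share near the 27.9% of all genes that were called. Cblb, a ubiquitin ligase, rose by 2.06 ± 0.51 on the log2 scale. Inpp5d, the lipid phosphatase SHIP1 (-0.90 ± 0.21), and Dok3, an adaptor (-1.996 ± 0.26), were lower. Ptpn6, which encodes the phosphatase SHP-1, had a mean of 560 ± 133 CPM among neutrophils, set against 298 ± 127 CPM among monocytes, and did not pass.

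Genes known to be induced through Syk and Card9 went both ways. Of 16 tested of 17 listed, 5 were lower in monocytes, 3 were higher and 8 did not pass, where 12.4% of all genes were lower and 15.5% higher. Il1b, an inflammatory cytokine gene, reached 25653 ± 5768 CPM among neutrophils, with 2805 ± 1013 CPM among monocytes (log2 difference -3.16 ± 0.35). Cxcl2, a neutrophil chemoattractant (-2.63 ± 0.27), and Ptgs2, the inducible cyclooxygenase (-2.71 ± 0.28), were lower in monocytes as well, as were Nlrp3 and Il23a. The 3 higher genes were the cytokine genes Il6 (49.0 ± 41.3 CPM in monocytes and 2.81 ± 2.43 CPM in neutrophils), Il10 (16.2 ± 6.04 and 3.04 ± 1.78 CPM) and Il12b, which was near 0 in neutrophils. These 3, Nlrp3 and Il23a were named after their values were seen.

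Other C-type lectin receptor genes leaned to monocytes. Of 19 tested of 21 listed, 10 rose in monocytes, 1 fell and 8 did not pass, where 15.5% of all genes rose and 12.4% fell. The median log2 difference of the list was 2.07, against 0.46 for all genes. Clec10a and Mgl2, galactose-type lectins of macrophages and dendritic cells, were at 44.0 ± 31.3 and 69.4 ± 66.3 CPM in monocytes and at 0.16 ± 0.24 and 0.21 ± 0.41 CPM in neutrophils. Colec12, a scavenger-type collectin, had 78.1 ± 24.7 CPM among monocytes, compared with 10.3 ± 5.88 CPM among neutrophils. The gene that fell was Olr1, the receptor for oxidised low-density lipoprotein (log2 difference -2.50 ± 0.47). The summed level of 8 dendritic cell markers was also higher in monocytes (155 to 1179 CPM, against 6.58 to 14.5 CPM in neutrophils), and its part in these values was not tested. In none of these 4 lists did a gene pass in either tumour comparison or in the interaction test by edgeR.

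Genes whose level followed that of a member over the 10 libraries were ranked by Pearson's r of log2(CPM + 1), over 6661 tested genes with a mean of at least 10 CPM. These values are a description, since the libraries fall into 2 cell types that set most of the correlation. For Clec4d the nearest gene was Resf1 (r = 0.997) and for Clec4e Ccr1 (r = 0.992), a chemokine receptor gene. For Clec5a it was Cnr2 (r = 0.996), a cannabinoid receptor gene, and for Clec7a D16Ertd472e (r = 0.973). For Clec4a1 it was Ap2a2 (r = 0.989), for Clec4a3 Slc29a3 (r = 0.974) and for Clec12a Selenos (r = 0.970). For the 2 genes without a called difference between the cell types, it was Soat1 for Clec4a2 (r = 0.964) and Tank for Clec4n (r = 0.912).

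The authors' deposited tables of TN2 against TN1 gave an adjusted p of 1 for every member in either cell type. The gene values there equalled the sum over all transcripts, within 0.001 on the log2(TPM + 1) scale, for 7 of the 9 members. For Clec4e they equalled its main coding transcript alone, up to 1.04 below the sum on that scale, and for Clec5a 3 of its 4 transcripts.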

How the data were processed

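RNA of the sorted cells was amplified with Smart-seq2 and sequenced on a HiSeq 2500, per the labels' protocols. The authors quantified reads with kallisto 0.42.3 on a GRCm38 transcriptome, per the submitters' processing notes, and deposited estimated counts, TPM and effective lengths for 85276 transcripts per library. Of these, 95.97% matched GENCODE M21 and were summed to genes. The authors' deposited comparison tables, made with AltAnalyze, hold log2 means, a log fold, a signed fold and p-values (raw and adjusted).

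Gene sums of the estimated counts were rounded and tested with edgeR 4.0.16 (R 4.3.3): filterByExpr with a minimum total of 10, TMM, 1 mean per group and the quasi-likelihood F test, on 13384 genes, with 6 residual degrees of freedom. The standard error is the log2 difference over the square root of F. All 9 members passed the filter. The steps were tested on simulated data. Alternatives used DESeq2 1.42.0, limma 3.58.1 and the settings in the closing section.

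The members and gene lists were chosen with earlier results of these data known. Besides the members, Fcer1g, Tyrobp, Syk and Card9 and the 3 genes with the smallest p in monocytes against neutrophils from each list were named. Marker lists for lymphocytes, eosinophils and basophils, platelets, erythroid cells and epithelium summed to at most 245, 78.3, 22.8, 176 and 173 CPM in any library. Reads of NOD/scid mice were mapped to a reference of another strain, and its effect on these genes was not tested. No batch is given in the labels.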

Additional observations from a re-analysis of the deposited data

How the results depend on the processing

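For monocytes against neutrophils, the count of called members was 5 to 7 with each library left out in turn, 8 on both TPM scales (with Clec4a2 added) and 7 in every other fit. Clec4d, Clec4e, Clec7a, Clec5a and Clec4a1 passed in all 22 fits. Clec4n turned sign on log2(TPM + 1) (0.43) and log2(TPM + 0.1) (0.43), and in mean TPM in place of CPM (log2 ratio 0.42). With TPM in place of CPM the log2 ratios of mean levels moved to -3.22 for Clec4d, -1.91 for Clec4e, -2.43 for Clec5a, 3.54 for Clec4a1, 1.08 for Clec4a2, 2.58 for Clec4a3, -0.70 for Clec7a and 1.58 for Clec12a.

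No member was called in a tumour comparison except Clec5a without Monocytes TN1 tag_191, so the counts of called members ran from 0 to 1 over the libraries left out, in monocytes and in the interaction (4.67, adjusted p = 0.0469, edgeR). Estimates near 0 turned sign, none of them called. In neutrophils, Clec5a was 0.0089 with effective length offsets. Without both tag_482 libraries the neutrophil values were -0.13 for Clec4d, -0.0062 for Clec4e, 0.48 for Clec4a3, 0.16 for Clec7a and 0.16 for Clec12a. Leaving out 1 library gave -0.089 to 0.66 for Clec4d, -0.43 to 0.53 for Clec4a3, -0.40 to 0.21 for Clec7a and -0.64 to 0.20 for Clec12a. In monocytes, log2(TPM + 1) and log2(TPM + 0.1) gave 0.12 for Clec4a1, 0.063 for Clec4a2 and 0.0023 and 0.0024 for Clec12a. Without both tag_482 libraries the monocyte values were -0.35 for Clec4d and -0.33 for Clec4a3, and without Neutrophils TN2 tag_1341 and Monocytes TN2 tag_706, an alternative chosen after seeing the data, 0.20 for Clec4a1 and 0.13 for Clec4a2. Leaving out 1 library gave -0.48 to 0.20 for Clec4a1, -0.55 to 0.13 for Clec4a2, -0.38 to 0.79 for Clec4d, -0.32 to 0.89 for Clec4a3 and -0.27 to 0.67 for Clec4e. The cause was not tested. In monocytes Clec4n and Clec7a stayed negative in all 22 fits, from -1.20 to -0.63 and from -1.19 to -0.61.

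Same-tag libraries of the 2 cell types correlated at 0.09 (both TN1 tags), -0.08 (tag_367), 0.38 (tag_706) and 0.35 (tag_1341) after removing group means. With 2 TN1 libraries per cell type the deviations mirror each other, so the TN1 tags give only 1 value. In TN2, tag_706 and tag_1341 correlated best with their own tag and tag_367 did not. The labels do not say whether a shared tag is a shared mouse, and these few values cannot settle it. With tag as a replicate block, 7 members were called (3335 genes in all) and 0 in the interaction. The tumour comparisons themselves could not be fitted with the block, since each tag has 1 tumour. Counts over all genes were 5730 on log2(TPM + 1), against 3733. For the tumour comparisons they were 0 by the main test and up to 506 in neutrophils and 372 in the interaction without Neutrophils TN1 tag_191, and up to 128 in monocytes and 71 in the interaction without Monocytes TN1 tag_191. They were 2 and 1 with no filter (neutrophils, interaction), and 1 and 3 on the TPM scales (neutrophils).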
